A study of Rattus norvegicus with 4 samples.

Results

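The SLC25 family of mitochondrial carriers was followed in cultured rat Sertoli cells, which line the seminiferous tubule and nurse the developing germ cells. Members were taken as the probe sets with a single platform gene symbol made of Slc25a and a number, together with the uncoupling protein genes Ucp1, Ucp2 and Ucp3. A gene with more than 1 probe set was represented by its brightest, judged by the mean over the 4 arrays. This gave 42 genes among 14217 named genes on the array. The cells came from 20-day-old male Sprague-Dawley rats and were kept without serum for 72 h, in one group with cAMP and in the other with no treatment. Each group holds 2 arrays, which the labels call biological replicates. Which form of cAMP was used, and how much, is not stated in the labels, and nothing says whether the replicates were separate cell preparations, so p-values measure the spread between these arrays, which may be partly technical.

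Mitochondrial carriers are small proteins of the inner mitochondrial membrane that exchange one metabolite, nucleotide, cofactor or ion for another between the cytosol and the matrix. They return ATP to the cytosol, bring phosphate and reducing equivalents in, let citrate out for lipid synthesis, and supply the matrix with cofactors and iron. In the testis, Sertoli cells export lactate to the germ cells and draw much of their own energy from mitochondria, and cAMP carries the signal of follicle-stimulating hormone inside them.

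The values are probe set signals on a linear scale, and differences are given as log2(signal + 16), cAMP minus control, ± standard error. A gene was called where limma's adjusted p was under 0.05, over 18625 probe sets bright enough to be tested. Of the 42 carriers 34 were tested and 8 lay below the filter. With cAMP 4 of the 34 were higher, namely Slc25a21, Slc25a30, Slc25a1 and Slc25a5, and 0 were lower by limma, while 30 did not pass. The 4 are 11.8% of the tested carriers, beside a background of 8.27% higher and 7.14% lower, or 15.4% called in all, among the 10035 named genes tested. At an unadjusted p under 0.05 by limma the count was 8 carriers with a positive and 2 with a negative difference. The share of all named genes at that threshold was not counted, so unadjusted counts here and below have no background beside them. The median difference was 0.04 over the tested carriers, with 17 positive and 17 negative, beside -0.03 over all tested named genes. Positive and negative differences were thus equally many, and the larger ones lay in a few members.

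**Figure D1:**
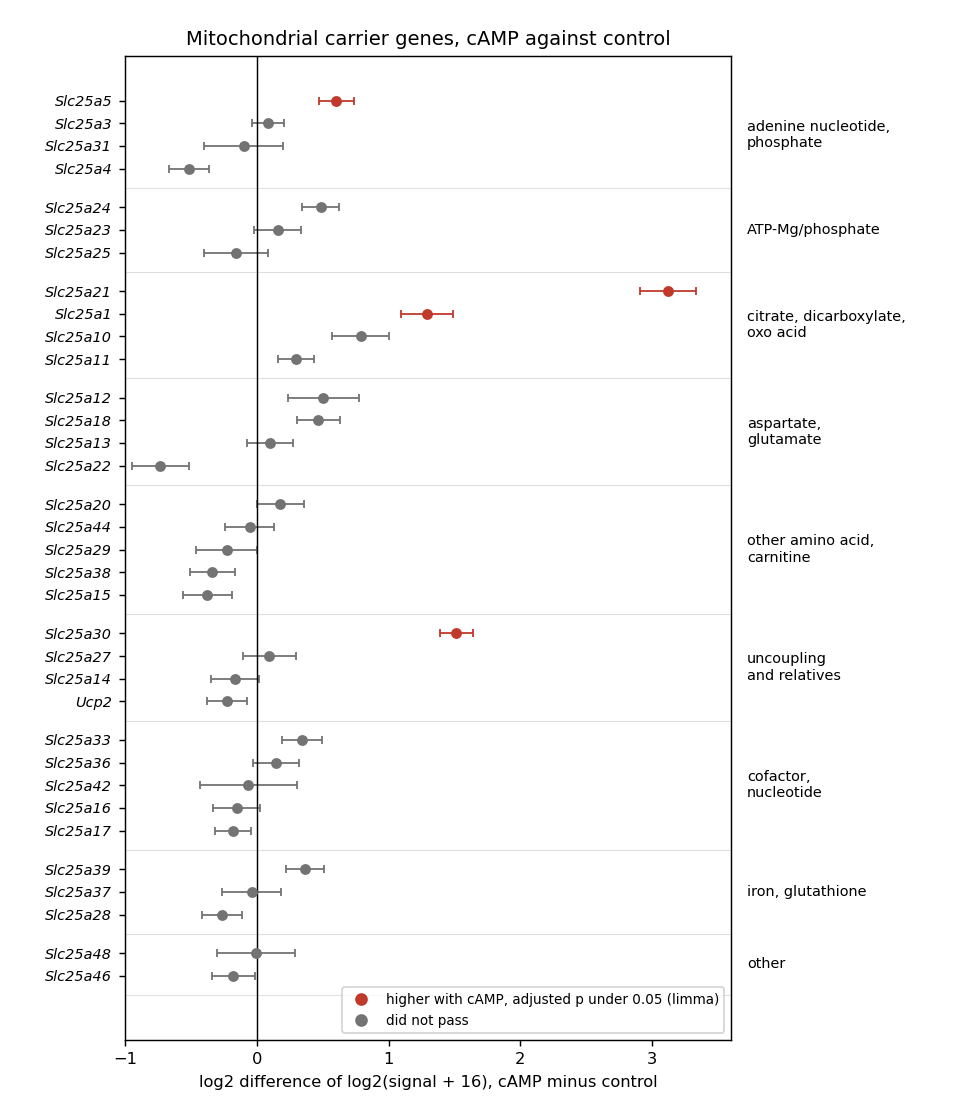
Log2 difference (cAMP minus control, with standard error bars) of the 34 tested carrier genes, grouped by what they carry. The 4 red points, Slc25a21, Slc25a30, Slc25a1 and Slc25a5, passed adjusted p under 0.05, and the 30 grey points did not.

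The arrays were alike in overall signal. All had been scaled to a trimmed mean of 125, with medians between 31.3 and 33.7, and 64.2% to 66.3% of the probe sets lay above a background of 14.2, the highest signal of 27 Bacillus control probe sets. Log2 signals correlated at 0.984 between the cAMP arrays, at 0.967 between the control arrays and at 0.895 to 0.925 between groups. For actin the 3' probe set gave 1.86 and 1.65 times the signal of the 5' one on the cAMP arrays, against 1.80 and 2.25 on control replicates 1 and 2. Of 11 Sertoli markers with a probe set, 10 were tested, of which 3 were higher with cAMP, namely Inha (2.04 ± 0.15), Dhh (0.74 ± 0.14) and Shbg (0.69 ± 0.18), and 2 were lower, namely Gata4 (-0.94 ± 0.12) and Aard (-0.51 ± 0.13). Gata4 gave 647.6 and 649 with cAMP, against 1290 and 1233 in control. The other 5, among them Wt1, Clu and Cldn11, did not pass, and the 11 summed to 25661 and 25746 with cAMP, against 23681 and 25318 in control. The meiotic germ cell gene Sycp3 gave 2258 and 1754 with cAMP, against 2340 and 2298 in control, far above background in both groups. None of the 4 tested germ cell markers passed, and the 6 measured ones summed to 3720 and 2748 with cAMP, against 3969 and 3608 in control. The 6 markers of peritubular myoid cells summed to 165.5 and 215.4 with cAMP, against 600.3 and 442.8 in control. Of 5 tested, Tagln and Synpo2 were lower and Des was higher. Most of the control sums was Tagln, at 344.5 and 264.3, against 1.3 and 7.4 with cAMP. Acta2 gave 67.1 and 73.2 with cAMP, against 109.6 and 60.6 in control, and did not pass. Tagln and Synpo2 passed the brightness filter only through their control arrays. The 4 measured endothelial markers summed to 91.2 and 88.3 with cAMP, against 229.5 and 155.6 in control, where Kdr was lower of 2 tested. Most of these sums was Kdr itself, at 57.5 and 58.1 with cAMP, against 187.3 and 130.8 in control. The 5 macrophage markers, all below the filter, summed to 56.3 and 75.5 with cAMP and to 29.1 and 24.5 in control. Most of that gap was Cd68, at 28.1 and 45.2 with cAMP, against 4.1 and 6.2 in control. The 6 Leydig cell markers summed to 90.1 and 73.5 with cAMP and to 95 and 90.1 in control. Of 5 measured brown adipocyte markers 2 were tested. Cidea was lower, at 257.9 and 192 with cAMP, against 508.7 and 570.6 in control (-1.22 ± 0.18), and Pparg did not pass. No measured marker of these lists was at 0 on every array. At or below background on all 4 arrays were 3 of 6 Leydig, 3 of 5 macrophage, 2 of 4 endothelial, 2 of 5 brown adipocyte and 2 of 6 germ cell markers. The part of such cells in the carrier results was not tested, and in RNA from whole cultures fewer cells of a type and less RNA per cell cannot be told apart.

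The carriers of citrate, dicarboxylates and oxo acids held the largest change of the family, and all 4 had positive differences. Slc25a21, the oxodicarboxylate carrier that moves 2-oxoadipate from lysine and tryptophan breakdown into the matrix, gave 127.3 and 158.5 on the cAMP arrays, against 1.4 and 3.0 on the control arrays. Both control arrays lay below background and both cAMP arrays far above it. The signal was therefore at least 10.0-fold higher with cAMP, with a fitted difference of 3.12 ± 0.21 and an adjusted p by limma of 0.000211. The gene passed the brightness filter only through its cAMP arrays. The fitted size also depended on the constant added before the logarithm, being 1.64 with 64 and 5.53 with 1, while the call held with each.

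Slc25a1 encodes the citrate carrier, which exports citrate for malate and so supplies the cytosol with acetyl units for fatty acid and sterol synthesis. It gave 667.1 and 588 with cAMP, against 298.7 and 203.2 in control, and the groups did not overlap. The mean was 2.50 times that of control, a difference of 1.29 ± 0.20 (adjusted p by limma = 0.00606). Without cAMP replicate 1 the difference was 1.20 and no longer passed (adjusted p by limma = 0.0821).

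The other members of that group were measured with less separation. Slc25a10, the dicarboxylate carrier, which exchanges malate or succinate for phosphate, gave 155.6 and 140.8 with cAMP, against 97.1 and 63.9 in control (0.79 ± 0.22, adjusted p by limma = 0.0549). All cAMP values lay above all control values. Without control replicate 1, which leaves 1 control array, the difference was 1.04. A second and dimmer probe set of Slc25a10 showed no such separation, at 44.6 and 49.7 with cAMP, against 50.1 and 51.1 in control. Slc25a11, the oxoglutarate carrier of the malate-aspartate shuttle, gave 609 and 575.5 with cAMP, against 504.5 and 454.6 in control (0.30 ± 0.14) and did not pass.

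Slc25a30, a relative of the uncoupling proteins first described in kidney, had the smallest adjusted p of the carriers after Slc25a21. The 2 are not on a par, since Slc25a21 passed the filter only through its cAMP arrays. Slc25a30 gave 3904 and 3789 on the cAMP arrays, against 1230 and 1450 on the control arrays. The cAMP arrays lay within a narrow range, and both were more than double either control array. The mean was 2.87 times that of control, a difference of 1.51 ± 0.12 (adjusted p by limma = 0.000427). A second probe set of the gene gave 760.6 and 683 with cAMP, against 139.7 and 101.4 in control, a difference of 2.45 ± 0.18 (adjusted p by limma = 0.000305). The probe sets thus had the same direction but different sizes, and the call held when any single array was left out.

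The uncoupling proteins themselves did not pass. Ucp2, the widely expressed member, gave 645.2 and 542.9 with cAMP, against 743.5 and 649.8 in control (-0.23 ± 0.15). Ucp1, which makes heat in brown fat, lay below background on all 4 arrays, and Ucp3, the muscle form, ranged from 5.6 to 29.3 and was not tested. All cAMP arrays lay below all control arrays for Ucp2. The brain-enriched relatives Slc25a27 and Slc25a14 had differences of 0.09 ± 0.20 and -0.16 ± 0.18. Slc25a30 was thus the single one of the 4 tested genes of this group that passed, while the difference between it and its relatives was not tested.

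**Figure D2:**
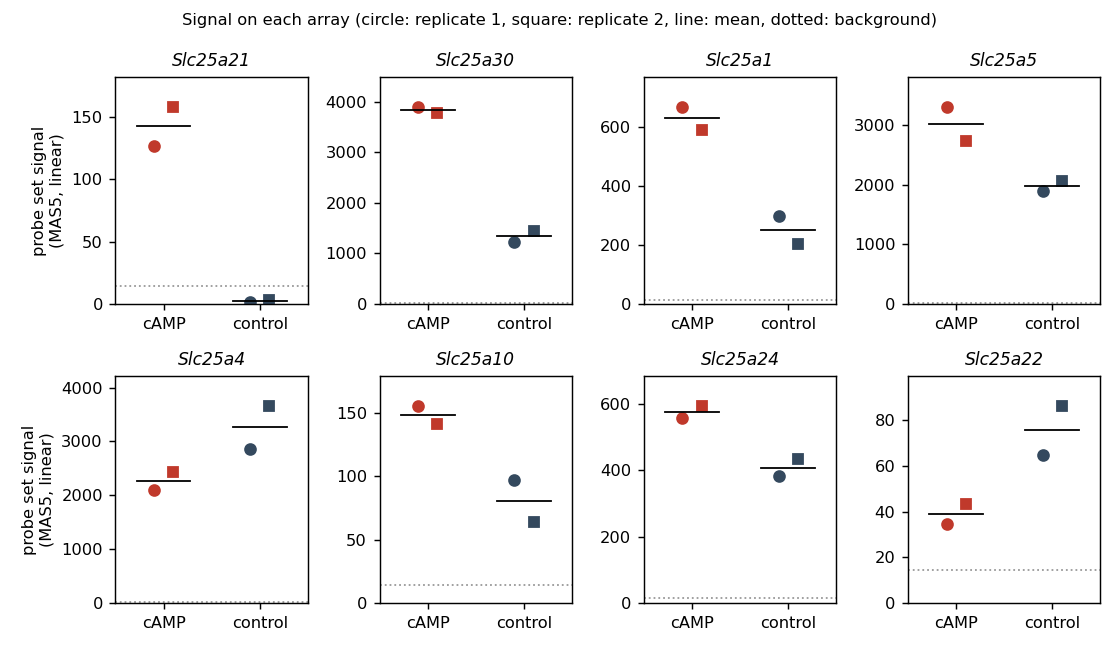
Signal of 8 carrier genes on each array, cAMP left of control, on linear axes that start at 0; circles and squares are replicates 1 and 2, the line is the mean and the dotted line the background of 14.2. The upper row holds the 4 genes that passed and the lower row 4 genes with separate groups that did not, with Slc25a4 and Slc25a22 lower with cAMP and Slc25a10 and Slc25a24 higher on every array.

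The adenine nucleotide translocases exchange cytosolic ADP for matrix ATP, and their forms had opposite signs. Slc25a5, the form of dividing and many other cells, gave 3305 and 2731 with cAMP, against 1887 and 2067 in control (0.60 ± 0.13, adjusted p by limma = 0.0256). Slc25a4, the form of heart and skeletal muscle, gave 2094 and 2436 with cAMP, against 2863 and 3664 in control (-0.52 ± 0.15), and did not pass (adjusted p by limma = 0.0665). For both genes the groups did not overlap. The call of Slc25a5 was lost without cAMP replicate 1 (0.46, adjusted p by limma = 0.307) and without cAMP replicate 2 (0.74, adjusted p by limma = 0.103). For Slc25a4 the difference was -0.69 without control replicate 1, which leaves 1 control array. The rat gene table used here lists 9 pseudogenes named for Slc25a5 and 1 for Slc25a4. Probes cannot be shown to tell such copies apart, so the signal of Slc25a5 is uncertain in that respect. The same limit holds for other carriers with listed pseudogenes, among them Slc25a21 with 1 and Slc25a3 with 2.

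The ratio of these forms can also be given for each array. The log2 ratio of Slc25a5 to Slc25a4 was 0.65 and 0.16 with cAMP, against -0.60 and -0.82 in control, a difference of 1.12. This restates the differences of the 2 genes, of which Slc25a4 did not pass, and adds no further support. Only the difference has a meaning, since the signals of different probe sets cannot be set against each other. An exact permutation test over the 4 arrays gave a two-sided p of 0.333. That is the smallest that 2 against 2 arrays allow, so the test cannot decide the question. Slc25a31, the translocase form of germ cells, gave 133.2 and 93.6 with cAMP, against 167.5 and 86.2 in control (-0.10 ± 0.30). Slc25a3, the phosphate carrier that feeds ATP synthase, gave 2133 and 1993 with cAMP, against 2065 and 1834 in control (0.08 ± 0.12). Neither differed beyond the spread between replicates.

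The ATP-Mg/phosphate carriers, which load or empty the matrix nucleotide pool under control of calcium, had 0 calls among 3 tested by limma and 1 unadjusted p under 0.05. Slc25a24 came nearest, at 558.7 and 595.2 with cAMP, against 382.3 and 435 in control (0.48 ± 0.14, adjusted p by limma = 0.0670), and the groups did not overlap. Without control replicate 2, which leaves 1 control array, its difference was 0.57. Slc25a23 and Slc25a25 had differences of 0.16 ± 0.18 and -0.16 ± 0.24. A dimmer probe set of Slc25a23 gave 20 and 36.7 with cAMP, against 4.4 and 8.7 in control. It lay below the filter and was not tested, and a further one was below background on every array. Slc25a41 lay between 9.7 and 16.1 and was not tested.

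Among the carriers of aspartate and glutamate, 0 of 4 passed by limma, and 2 had an unadjusted p under 0.05. Slc25a22, a glutamate carrier, gave 34.7 and 43.1 with cAMP, against 64.8 and 86.3 in control, the largest negative difference of the tested carriers (-0.73 ± 0.22, adjusted p by limma = 0.0674). Its groups did not overlap, and without control replicate 1, which leaves 1 control array, the difference was -0.90. The second glutamate carrier, Slc25a18, differed in the other direction, at 172.5 and 181.8 with cAMP, against 128.1 and 119.7 in control (0.47 ± 0.16). Slc25a12 and Slc25a13, the aspartate/glutamate exchangers of the malate-aspartate shuttle, had differences of 0.50 ± 0.27 and 0.10 ± 0.17.

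The 5 tested carriers of other amino acids and carnitine did not pass, with differences from -0.37 to 0.18. These were Slc25a15, the ornithine carrier (-0.37 ± 0.19), Slc25a38, the glycine carrier that serves haem synthesis (-0.34 ± 0.17), Slc25a29, a carrier of basic amino acids (-0.23 ± 0.23), Slc25a44, a carrier of branched-chain amino acids (-0.05 ± 0.18), and Slc25a20, the carnitine/acylcarnitine carrier of fatty acid oxidation (0.18 ± 0.18). Slc25a15 gave 55.2 and 48.1 with cAMP, against 70.4 and 72.8 in control. Its 4 other tested probe sets had differences from -0.09 to 0.29, and none was called. Slc25a38 gave 96.1 and 87.6 with cAMP, against 121.6 and 118.7 in control, again without overlap.

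Carriers of cofactors and nucleotides did not pass either. Slc25a33, a pyrimidine nucleotide carrier, gave 285.7 and 258.9 with cAMP, against 217.4 and 205.7 in control (0.34 ± 0.15). For its relative Slc25a36 the probe sets disagreed. The brighter one gave 933.1 and 1043 with cAMP, against 756.3 and 1050 in control (0.14 ± 0.18), whereas the other gave 240.5 and 230.4 with cAMP, against 110.9 and 120.3 in control (0.93 ± 0.16, adjusted p by limma = 0.00948). Slc25a17, the peroxisomal member (-0.18 ± 0.14), Slc25a16 (-0.15 ± 0.18) and Slc25a42, a coenzyme A carrier (-0.06 ± 0.37), had small differences. Slc25a42 was the member whose control arrays differed most, at 54.6 and 19.9. The folate and flavin carrier Slc25a32 ranged from 12.3 to 25.6 and was not tested.

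The iron and glutathione carriers had 0 calls among 3 tested by limma and 1 unadjusted p under 0.05. Slc25a28, mitoferrin 2, the iron importer of non-erythroid cells, gave 188 and 187.6 with cAMP, against 231.9 and 225.9 in control (-0.26 ± 0.15). The groups did not overlap, and the arrays of each group lay close together. Slc25a37, mitoferrin 1, the form of red cell precursors, gave 17.6 and 25 with cAMP, against 19.5 and 24.9 in control (-0.04 ± 0.22), just above background. Slc25a39, which brings glutathione into mitochondria, gave 835.5 and 723 with cAMP, against 641.4 and 562.7 in control (0.36 ± 0.14). Its difference was 0.45 without control replicate 1, which leaves 1 control array, and the gene table lists 8 pseudogenes named for it.

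The remaining members were dim or close to each other. Slc25a46, an outer membrane protein of mitochondrial dynamics, had a difference of -0.18 ± 0.16, and Slc25a48 one of -0.01 ± 0.29. Slc25a34, Slc25a35, Slc25a45 and Slc25a53 were below the filter, with signals from 1.2 to 27.6. Slc25a53 lay below background on both cAMP arrays, at 11.2 and 7.2, against 16.5 and 15.8 in control, a margin of a few signal units over background. Probe sets of Slc25a51, which carry its symbol for more than 1 gene, and of the related Slc25a51l1 fell outside the rule, and had differences of 0.25, 0.13 and 0.48 with no call.

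Across the 34 tested carriers, 12 had both cAMP arrays above both control arrays, 9 had both below, and 13 overlapped. Among all tested named genes 28.8% were separate upwards and 32.6% downwards, so the count of separate groups was close to the background in both directions. The median gap between arrays of a group was 0.15 on the log2 scale for the cAMP arrays and 0.18 for the control arrays over the tested carriers, beside 0.14 and 0.21 over all tested named genes. Of the tested carriers 26 had a difference smaller than 0.5 in size, and 3 had one of at least 1, namely Slc25a21, Slc25a30 and Slc25a1. A difference of at least 1 was found in 8.08% of all tested named genes, so this count too was close to the background.

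**Figure D3:**
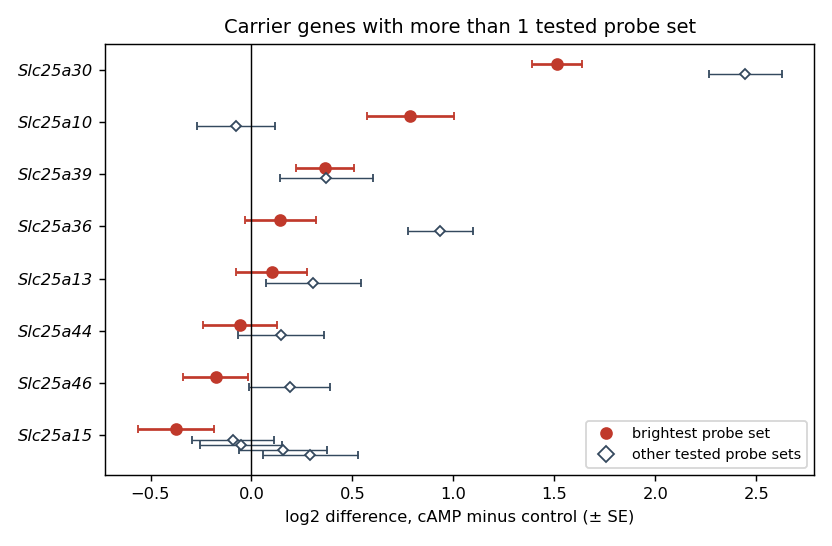
Log2 difference with standard error bars for the 8 carrier genes with more than 1 tested probe set; red circles are the brightest probe set and open diamonds the others. Both probe sets of Slc25a30 lie above 1.5, while those of Slc25a36 and Slc25a10 lie apart from each other.

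Probe choice mattered for some members. Of the 42 carriers 13 had more than 1 probe set, and 11 of the 19 further probe sets were bright enough to be tested. Among these 11, 2 were higher with cAMP, those of Slc25a30 and Slc25a36, and 0 were lower by limma, also at an unadjusted p under 0.05. Over all probe sets tested 13.7% were called, 7.29% higher and 6.39% lower.

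Promoter sequences of 37 of the 42 genes were read from RefSeq (build GRCr8) to set the letters of the cAMP response element, the site bound by the factor CREB downstream of cAMP, beside the measured differences. They cover 250 bases before to 50 after the annotated start. The full element TGACGTCA, which reads the same on both strands, lay in 2 of 38 carrier promoters, against 1.83% of all 33469 promoters, and its 5-letter part TGACG, searched on both strands and contained in the full element, in 11 of 38, against 21.2%. The full element stood before Slc25a25 at position -158 and before Slc25a33 at position -84, counted from the start, and neither gene passed. Slc25a1 held TGACG at position -20 and Slc25a21 held it in the transcribed part, while the window of Slc25a5 held neither. The stretches from 170 bases before to 30 after the start are shown for the genes that rose and have an entry, and for both genes with the full element, 5′ to 3′ on the gene's strand, with the matched letters in capitals. A match of letters is a description of the sequence and not a site shown to be used.
Slc25a21, chr6:80437691-80437890, minus strand: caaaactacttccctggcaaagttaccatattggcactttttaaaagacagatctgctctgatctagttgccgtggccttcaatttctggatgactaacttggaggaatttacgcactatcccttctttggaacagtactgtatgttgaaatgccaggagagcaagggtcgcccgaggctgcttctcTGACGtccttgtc
Slc25a1, chr11:96559884-96560083, plus strand: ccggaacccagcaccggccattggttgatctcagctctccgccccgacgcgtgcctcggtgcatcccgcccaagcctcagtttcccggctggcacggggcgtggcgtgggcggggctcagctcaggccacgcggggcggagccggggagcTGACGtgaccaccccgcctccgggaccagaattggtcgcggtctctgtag
Slc25a5, chrX:120897446-120897645, plus strand: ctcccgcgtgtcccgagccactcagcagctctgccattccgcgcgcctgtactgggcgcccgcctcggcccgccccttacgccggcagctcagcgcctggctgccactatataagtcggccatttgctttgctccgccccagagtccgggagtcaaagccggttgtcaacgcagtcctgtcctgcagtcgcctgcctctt
Slc25a25, chr3:36116552-36116751, minus strand: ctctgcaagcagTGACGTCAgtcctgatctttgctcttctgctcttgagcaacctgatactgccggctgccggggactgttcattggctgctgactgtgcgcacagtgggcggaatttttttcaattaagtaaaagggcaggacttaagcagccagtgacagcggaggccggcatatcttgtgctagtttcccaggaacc
Slc25a33, chr5:165502944-165503143, minus strand: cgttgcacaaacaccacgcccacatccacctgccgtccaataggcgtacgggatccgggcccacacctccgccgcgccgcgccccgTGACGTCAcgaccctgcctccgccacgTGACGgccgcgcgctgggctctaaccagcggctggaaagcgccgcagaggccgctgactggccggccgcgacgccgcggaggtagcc

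Genes that work with the carriers were read from 9 lists of enzymes, channels, import factors and regulators, 95 genes in all. Of the 82 tested, 11 were higher and 4 lower with cAMP, against 8.27% and 7.14% of all named genes. The shuttles that bring cytosolic reducing equivalents to mitochondria had 3 of 6 tested enzymes higher and 0 lower by limma, with a list median of 0.61. Gpd1, the cytosolic enzyme of the glycerol phosphate shuttle, gave 766.7 and 747.7 with cAMP, against 405.3 and 201.7 in control (1.35 ± 0.28, adjusted p by limma = 0.0210). Got1 and Mdh1, the cytosolic enzymes of the malate-aspartate shuttle, rose by 0.71 ± 0.18 and 0.52 ± 0.12. Their mitochondrial counterparts Got2 (0.81 ± 0.25) and Mdh2 (0.07 ± 0.13) did not pass, nor did Gpd2 (-0.08 ± 0.20). Leaving out either cAMP array removed all 3 calls, as did dropping the brightness filter. Dropping the intensity trend removed those of Got1 and Mdh1, and leaving out control replicate 2 removed that of Got1.

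**Figure D4:**
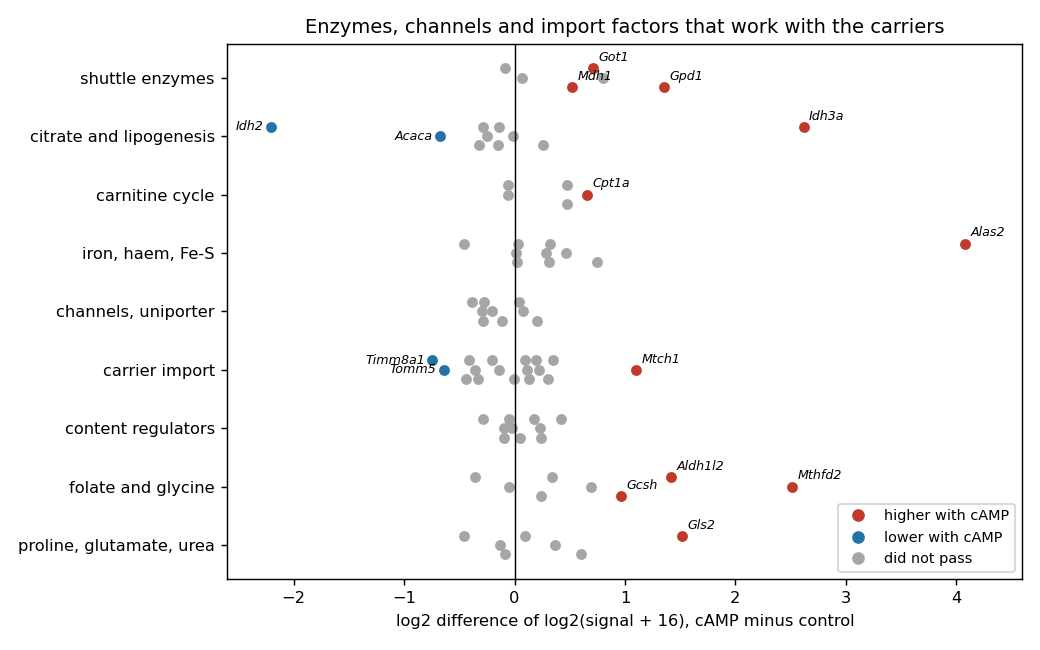
Log2 difference (cAMP minus control) of the 82 tested genes that work with the carriers, 1 row per list; red points were higher, blue points lower, and grey points did not pass adjusted p under 0.05 by limma. Alas2, Idh3a and Mthfd2 lie farthest to the right and Idh2 farthest to the left.

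Of 10 tested genes of citrate formation, pyruvate entry and lipid synthesis, 1 was higher and 2 were lower. Idh3a, the catalytic subunit of the NAD-dependent isocitrate dehydrogenase of the citric acid cycle, gave 1124 and 1220 with cAMP, against 200.1 and 157.2 in control (2.62 ± 0.16, adjusted p by limma = 0.000137). Idh2, the NADP-dependent mitochondrial form, gave 66.7 and 85.4 with cAMP, against 414.2 and 399 in control (-2.21 ± 0.17, adjusted p by limma = 0.000380). These enzymes act on the same substrate in the matrix and had opposite directions, and both calls held with any single array left out. Acaca, the acetyl-CoA carboxylase of lipid synthesis, fell by 0.67 on the log2 scale (SE 0.18), a call that did not hold under several settings. It was lost without cAMP replicate 1, cAMP replicate 2 or control replicate 1, with 1 as the added constant, without the filter, with median centring, without the intensity trend and with the mean of all probe sets. Acly, which splits the citrate that Slc25a1 exports, did not pass (-0.02 ± 0.14), and neither did Me1, the malic enzyme that makes NADPH in the cytosol (-0.25 ± 0.11).

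In the carnitine cycle 1 of 5 tested genes rose, Cpt1a, which makes the acylcarnitines that Slc25a20 carries. It gave 832.6 and 613.1 with cAMP, against 441.8 and 452.6 in control (0.66 ± 0.17, adjusted p by limma = 0.0461), and it was lost without cAMP replicate 1, cAMP replicate 2 or control replicate 2, without the filter and without the trend. Among 10 tested genes of mitochondrial iron, haem and iron-sulphur clusters 1 rose, Alas2, the erythroid first enzyme of haem synthesis, whose glycine comes through Slc25a38. It gave 1135 and 865.3 with cAMP, against 54 and 34.4 in control (4.08 ± 0.22), while the mitoferrins and Slc25a38 did not pass. Alas2 is itself 1 of the 5 measured erythroid markers. Of the other 4, Hbb, Epb42 and Klf1 lay below the filter, while Gata1, also known from mouse Sertoli cells, gave 51.2 and 58.1 with cAMP, against 45.9 and 48.8 in control, and did not pass. The 5 summed to 1214 and 934.9 with cAMP, against 108.9 and 91.1 in control, but most of the cAMP sums was Alas2 itself. None was at 0 on every array, while Epb42 and Klf1 lay below background on every array. Fech, which inserts the iron, had a difference of 0.47 ± 0.19, Alas1, the first enzyme in other tissues, one of 0.75 ± 0.35, and Abcb10, an inner membrane transporter, one of -0.46 ± 0.19. Without control replicate 1, 3 genes of each of these lists were called, with Cpt1b and Cpt2 added in the first and Alas1 and Fech in the second.

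Mitochondrial folate and glycine enzymes had 3 of 8 tested genes higher and 0 lower by limma. Mthfd2, of the mitochondrial folate cycle, gave 1231 and 1264 with cAMP, against 218.5 and 192.8 in control (2.51 ± 0.14, adjusted p by limma = 0.000101). Gcsh, the carrier protein of glycine cleavage, rose by 0.96 ± 0.13, and Aldh1l2, another folate enzyme, by 1.42 ± 0.27. Without control replicate 1 the count was 5, with Shmt2 and Dld added. Aldh1l2 gave 49 and 71.7 with cAMP, against 18.1 and 7.3 in control, and was lost without either cAMP array and without the brightness filter. It was tested only through its cAMP arrays, since both control arrays lay under the filter, and the filter at the 60th percentile removed its call. Gcsh was lost without cAMP replicate 1. In the list of urea cycle, proline and glutamate enzymes 1 of 7 tested rose, Gls2, a glutaminase that makes the glutamate of the matrix. It gave 35.3 and 54.4 with cAMP, against 2.8 and 7.4 in control, at least 3.09-fold higher (adjusted p by limma = 0.00822). It passed the filter only through its cAMP arrays, and it was not called without cAMP replicate 2, with 1 as the added constant or with the filter at the 60th percentile. Glud1 (0.60 ± 0.21) and Aldh18a1 (0.36 ± 0.23) were called higher only with control replicate 1 left out. Odc1 (-0.46 ± 0.18) was called lower only with control replicate 2 left out.

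The list for import of carriers into the inner membrane had 17 tested genes, of which 1 was higher and 2 were lower. Its median was -0.01. Both counts were near the background of 8.27% higher and 7.14% lower among all tested named genes. The list also holds Mtch1 and Mtch2, outer membrane proteins related to the carriers, and the 1 higher gene was Mtch1. It gave 4116 and 3990 with cAMP, against 2144 and 1651 in control (1.10 ± 0.14, adjusted p by limma = 0.00316). Its relative Mtch2 did not pass (0.10 ± 0.12). Timm8a1, a chaperone of the intermembrane space, fell by 0.75 (SE 0.18), and Tomm5, a small subunit of the outer membrane pore, fell by 0.64 (SE 0.15), both on the log2 scale. Both falls were lost when either cAMP array, the filter or the trend was left out, Timm8a1 also without control replicate 2, and Mtch1 was lost without cAMP replicate 1. Timm22, the pore that inserts the carriers (0.13 ± 0.19), and its partner Timm10 (-0.44 ± 0.13) did not pass. Without control replicate 1, 4 genes were lower, with Timm10 and Tomm7 added.

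Outer membrane channels, the calcium uniporter and cyclophilin D had 0 calls among 9 tested genes, and regulators of mitochondrial content 0 among 10, in both directions by limma. In the first list Vdac2, a pore for metabolites, had a difference of -0.28 ± 0.15, Smdt1, a subunit of the calcium uniporter, one of -0.30 ± 0.14, and Ppif, which encodes cyclophilin D, one of -0.38 ± 0.17. Without control replicate 1, Vdac2 and Ppif were called lower. In the second, Esrra, a nuclear receptor, had a difference of 0.42 ± 0.20, Tfam, which packs mitochondrial DNA, had one of -0.28 ± 0.14 and Nrf1, a factor for nuclear genes of mitochondria, one of 0.24 ± 0.19. The coactivator genes Ppargc1a and Ppargc1b lay below the filter. The medians of these lists were -0.20 and 0.01. At an unadjusted p under 0.05 the count was 0 in both lists.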

How the data were processed

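Total RNA of cultured Sertoli cells was hybridised to 4 one-colour Affymetrix rat arrays. The authors deposited signal intensities per probe set on a linear scale; the submitters' processing notes name GCOS and MAS5, and their settings are not stated there. Equal trimmed means (2% removed at each end) show that the arrays had been scaled before deposit, so a change shared by most transcripts cannot be seen. From them log2(signal + 16) was computed without further normalization. Probe sets with a mean at or above the 40th percentile (5.10) entered the fit, made in limma 3.58.1 under R 4.3.3 (lmFit, eBayes with an intensity trend, two-sided), with Benjamini-Hochberg adjustment over all of them. The fit was tested on simulated data. Alternatives were other constants, filters and scalings, no trend, the replicate number as a block, the mean over probe sets, and each array left out. The number of arrays limits the precision.

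Of 31099 probe sets, 20826 carry 1 gene symbol in the platform annotation, 436 several, and 9837 have none or are among the 57 controls, which stayed out of the tests. Symbols of named genes outside the family were updated through a GRCr8 gene table; updating changed no carrier. Where every array of the dimmer group lay at or below background, a bound is given, the brighter group's geometric mean over the background. All carriers that passed are named with each array's signal, the others with their difference or range, and of each further list up to 4 genes with the smallest p, besides those needed to describe a count. Acly, Mtch2 and Timm22 fall outside that rule and were named after their values were seen. Members and lists were chosen with earlier results of these data known. A comparison of protein sequences that had been planned was not made.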

Additional observations from a re-analysis of the deposited data

How the results depend on the processing

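Slc25a30 was called under all alternatives run and Slc25a21 under all but the filter at the 60th percentile, which removed it. Slc25a1 was lost without cAMP replicate 1, and Slc25a5 without either cAMP array, without the brightness filter and without the intensity trend. Over the fits that left out 1 array, between 2 and 6 carriers were higher and between 0 and 2 lower, and of the genes that work with them 4 to 21 were higher and 1 to 7 lower. All 4 highest counts came from leaving out control replicate 1. That fit leaves 1 control array, so its spread within groups comes from the cAMP arrays alone. Quantile normalization made 1 carrier lower, Slc25a4. Without the filter 6 of the genes that work with the carriers were higher and 1 lower, and without the trend 1 was lower; the cause was not tested. Calls in all probe sets were 1358 higher and 1191 lower, against 873 and 725 without the filter, 408 and 305 with cAMP replicate 1 left out, 427 and 346 with cAMP replicate 2 left out, and 2419 and 2371 with control replicate 1 left out. With the replicate number as a block, 5 carriers were higher and 2 lower, with Slc25a10, Slc25a4 and Slc25a22 added. The arrays share only a number, and the correlation of the deviations of same-numbered arrays was 0.16. Slc25a10 was also called higher with the filter at the 60th percentile and with median centring. Signs that changed under an alternative belonged to members with differences of at most 0.23 in size. The median over the tested carriers lay between -0.04 and 0.10. Signals near background limit Slc25a37, Slc25a42, Slc25a48 and the 8 members not tested.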
